A study of Mus musculus with 6 samples.

Results

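Acute phase proteins and the IL-6 pathway were examined in the mouse mammary carcinoma line 4T1 given corticosterone, the glucocorticoid hormone of mice and rats, through 10 genes: Lcn2, Saa1, Saa3, Hp, C3, Il6ra, Il6st, Socs3, Stat3 and Slpi. They were chosen by symbol in the deposited gene table. A row was present for 9 of the 10 among 28154 genes, and Saa1 has no row and was not analysed here. The libraries were RNA sequencing of total RNA from corticosterone-treated cells (n = 3) and from control cells (n = 3), with 62.2 to 66.2 M counts each in treated libraries and 63.4 to 65.9 M counts in controls. Both groups are 4T1 cells with no genetic change named, and the sources used here give neither the dose, nor the time, nor what controls received. Nothing says whether replicates were separate cultures, so the p-values rest on the spread of these libraries alone. In a line grown in culture, as in any bulk sample, fewer cells making a transcript and less of it per cell cannot be told apart.

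Interleukin-6 binds its receptor chain (Il6ra) and then gp130 (Il6st), a signalling chain shared by the whole cytokine family. JAK kinases bound to gp130 phosphorylate the transcription factor STAT3, which induces Socs3, an inhibitor that feeds back on gp130 and the kinases, and, together with C/EBP factors, many acute phase genes. These encode secreted defence proteins that the liver makes in inflammation and that epithelia and carcinomas can also make. In liver cells, glucocorticoids are known to add to the induction of several of them by IL-6.

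Corticosterone lowered a single gene of the set, the protease inhibitor Slpi, which fell 2.58-fold. The iron-scavenging lipocalin Lcn2 and the feedback inhibitor Socs3 had fold changes of 1.16 and 1.17, and the complement protein C3 and the receptor chain Il6ra had fold changes of 0.915 and 0.835, none of which passed. Haptoglobin (Hp) and serum amyloid A3 (Saa3) were close to the limit of detection in every library. Beyond the set, the kinases Jak2 and Jak3, the STAT5-induced inhibitor Cish, and the secreted proteins Clu, C1ra and Cp fell. The transcription factors Bcl6 and Cebpg rose, as did the endotoxin carrier Lbp. Lbp was also close to the limit of detection, at 0.0552 FPKM with corticosterone and 0 FPKM in controls. All 9 genes with a row passed the filter on low counts. Of these, 1 fell, 0 rose and 8 did not pass (edgeR quasi-likelihood test, Benjamini-Hochberg adjusted p under 0.05), beside 2.82% of 17283 tested genes called in either direction. At an unadjusted p under 0.05 there were 2 higher and 3 lower, 5 of 9 in all, beside 8.23% of all tested genes higher, 8.80% lower and 17.0% in all, and DESeq2 and limma each called the fall of Slpi and 0 rises. The median log2 fold change over the 9 genes was 0.19, beside 0.00 over all tested genes.

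The labels were checked with known targets of the glucocorticoid receptor. Per1, Tsc22d3, Klf9, Sgk1 and Fkbp5 rose in the treated libraries, 5 of 5, with log2 fold changes between 0.77 and 1.75. Of all tested genes, 1.35% were called higher. These targets were listed with earlier results of these data known, so the check is not independent of the data. Corticosterone replicate 2 differed from the remaining treated libraries, with a chi-square per gene of 42.5 and 66.9 against replicates 1 and 3, while pairs of controls had 8.76 to 15.2 and corticosterone replicates 1 and 3 had 10.4. Without it, 20.5% of tested genes were called. Epithelial keratins and adhesion genes were abundant, with Krt8 at 431 FPKM (a level corrected for transcript length and library depth) in treated and 428 FPKM in control cells and Krt18 at 717 and 755 FPKM, although Krt5 has no row. Leukocyte genes were not all silent: Lyz2 averaged 122 FPKM in treated and 111 FPKM in control cells and Cd68 20.6 and 22.3 FPKM, while Ptprc (CD45) had 0.202 and 0.198 FPKM. Of 11 neutrophil markers, whose cells make much Slpi, Lcn2 and Hp, 10 had a row and 4 (Ly6g, Mpo, Elane and Csf3r) averaged under 0.1 FPKM, and their summed level was 13.2 to 22.1 CPM (counts corrected for library depth only) with corticosterone and 13.7 to 15.5 CPM in controls. The ranges overlapped. Mmp8 made up much of that sum, and without it (left out after its values were seen) the level was 5.3, 14.4 and 6.75 CPM in corticosterone replicates 1, 2 and 3, against 5.21, 6.36 and 5.58 CPM in control replicates 1, 2 and 3. Corticosterone replicate 2 was the highest library for 6 of the 10 markers (Camp, Ltf, Ly6g, Ngp, S100a8 and S100a9). Some of these places rest on few counts. Camp had 19 counts there and 17 in control replicate 1, and Ly6g 15 there and 9 in control replicate 3. Elane had 4 counts in corticosterone replicate 1 and 4 in control replicate 2. Mmp8 was lowest there, at 7.77 CPM against 7.91 to 9.76 CPM in the other libraries. Elane, Mpo and Csf3r were also highest in other libraries. S100a9 had 2.56, 7.92 and 3.41 FPKM in corticosterone replicates 1, 2 and 3, against 2.66, 3.53 and 2.17 FPKM in controls, and Ltf had 0.216, 0.49 and 0.163 FPKM against 0.11, 0.137 and 0.151 FPKM, with no overlap of the groups. Of the 8 markers tested, edgeR called 0 (1 at an unadjusted p under 0.05). Of 5 hepatocyte markers, only Apoa1 had a row, at a summed level of 0 to 0.046 CPM in treated libraries and 0 CPM in controls.

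**Figure D1:**
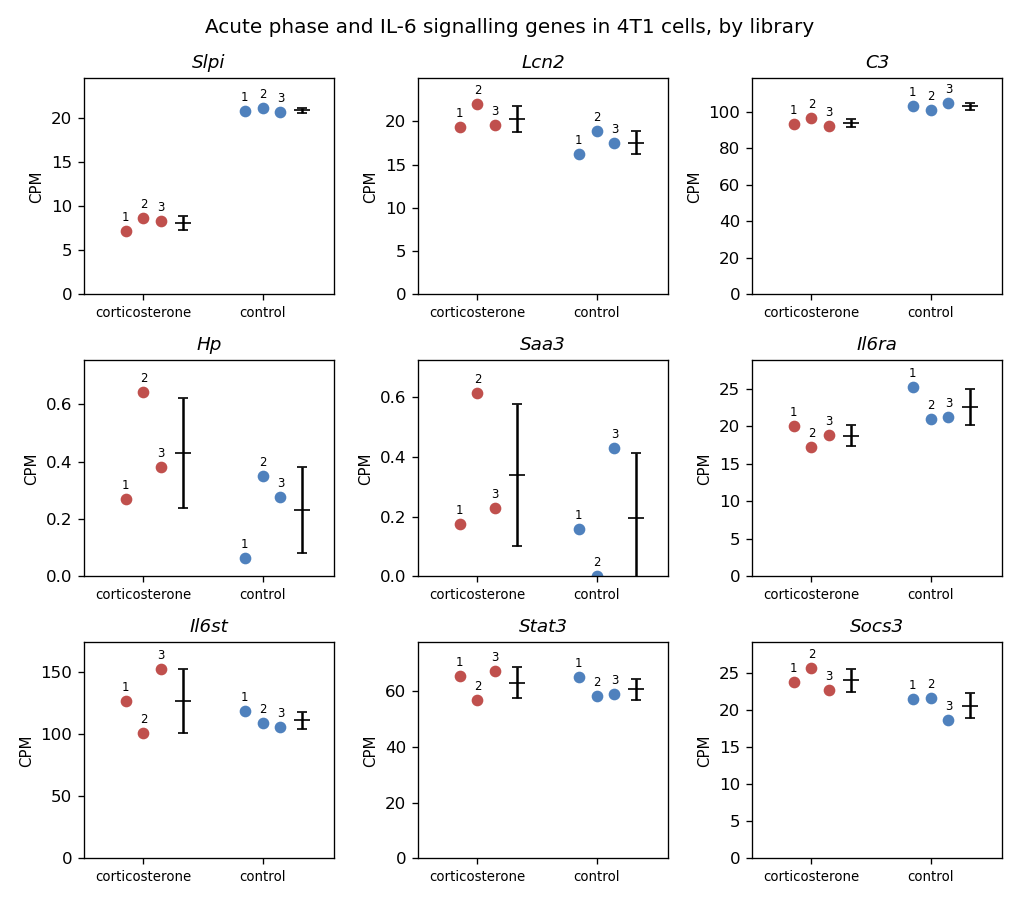
Level of each gene in every library, in CPM, with corticosterone-treated libraries left and controls right. Numbers are replicate numbers and bars give the mean ± SD (n = 3), cut at 0 for Saa3. Slpi lies at 7.19 to 8.69 CPM in treated libraries, against 20.7 to 21.2 CPM in controls, and the groups overlap for Hp, Saa3, Il6st and Stat3.

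Slpi (ENSMUSG00000017002, chromosome 2, 164354070 to 164356507, minus strand, GRCm38) encodes the secretory leukocyte protease inhibitor, a small secreted protein of mucosal epithelia that inhibits neutrophil elastase and cathepsin G. In CPM, it had 7.19, 8.69 and 8.35 CPM in corticosterone replicates 1, 2 and 3, against 20.8, 21.2 and 20.7 CPM in control replicates 1, 2 and 3. Every treated library was below every control, and the controls lay close together. The mean was 8.08 ± 0.787 CPM with corticosterone and 20.9 ± 0.269 CPM in controls (SD, n = 3), which gives log2 fold change -1.37 (SE 0.095, 95% interval -1.59 to -1.15; edgeR quasi-likelihood, Benjamini-Hochberg adjusted p = 0.00078). In FPKM, it had 5.44, 6.42 and 6.35 FPKM in treated libraries and 15.6, 15.9 and 15.4 FPKM in controls. Without corticosterone replicate 2 the log2 fold change was -1.43, and the call held in each of 13 alternative settings. The microRNA gene Mir7678 lies within the same strand of Slpi. Among all genes that fell, Slpi ranked number 10 of 253 by fold change, and among those with a mean of at least 5 FPKM, number 2 of 164.

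The letters before the start of the gene are shown for Slpi, the member that fell, for C3, the member with the highest FPKM, and for Saa1, which had no row, since all 3 windows hold the same short C/EBP motif. Each window is the 250 bases upstream of the RefSeq start (GRCm38.p6), 5′ to 3′ on the minus strand, with the match to TTGCNNAA or its reverse complement in capitals, at chr2:164356508-164356757 for Slpi, chr17:57228137-57228386 for C3 and chr7:46742981-46743230 for Saa1.
Slpi: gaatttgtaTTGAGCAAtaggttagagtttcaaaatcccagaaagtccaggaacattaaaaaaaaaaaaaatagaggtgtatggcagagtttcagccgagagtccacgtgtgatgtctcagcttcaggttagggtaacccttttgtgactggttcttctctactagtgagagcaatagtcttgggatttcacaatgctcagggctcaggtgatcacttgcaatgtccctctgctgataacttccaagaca
C3: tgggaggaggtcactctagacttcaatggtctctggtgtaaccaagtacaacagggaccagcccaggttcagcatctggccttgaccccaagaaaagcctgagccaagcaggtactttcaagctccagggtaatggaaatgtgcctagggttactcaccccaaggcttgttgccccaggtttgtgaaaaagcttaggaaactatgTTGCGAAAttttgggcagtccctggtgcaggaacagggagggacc
Saa1: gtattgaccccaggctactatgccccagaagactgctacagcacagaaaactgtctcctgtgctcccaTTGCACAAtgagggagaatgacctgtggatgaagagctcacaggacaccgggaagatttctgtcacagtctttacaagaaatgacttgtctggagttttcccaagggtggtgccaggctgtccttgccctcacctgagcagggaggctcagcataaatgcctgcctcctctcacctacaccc
The match is TTGAGCAA, the reverse complement orientation, at bases -241 to -234 in Slpi, TTGCGAAA at -45 to -38 in C3 and TTGCACAA at -182 to -175 in Saa1. Windows were found for 9 of the 10 genes, all but Hp. The C/EBP letters occurred in 5 of these 9, also in Lcn2 (TTGCTCAA) and Saa3 (TTATGCAA), beside 9.56% of 32851 mouse promoter windows of that length. The STAT letters TTCNNNGAA occurred in 1, as TTCTTAGAA at -154 to -146 in Socs3, beside 7.02% of all windows. The Socs3 window lies inside the deposited span of Socs3 (117966079 to 117970047), so this match is upstream of the RefSeq start only. Some windows hold bases annotated as exon in GENCODE M21, 197 of 250 for Lcn2, 77 for Socs3, 24 for Saa3 and all 250 for Il6ra (exons of Gm42809). The AP-1 letters TGANTCA (6.75% of windows), the palindromic glucocorticoid receptor consensus (0.167%) and the NF-kappaB consensus (7.25%) occurred in 0 of the 9. Both strands were searched, and the motifs were allowed to overlap. These are descriptions of letters in short windows, and say nothing about binding.

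Lcn2 (chromosome 2, 32384633 to 32387797) encodes lipocalin 2, which binds bacterial siderophores and thereby withholds iron. It had 19.3, 22.0 and 19.6 CPM in corticosterone replicates 1, 2 and 3, against 16.2, 18.9 and 17.5 CPM in control replicates 1, 2 and 3. The groups did not overlap, but the lowest treated library exceeded the highest control by little. The highest was corticosterone replicate 2, in which 6 of 10 neutrophil markers were highest too, some on few counts, and Mmp8 was lowest. A link between these markers and Lcn2 was not tested. Without that library the log2 fold change was 0.15, and over all libraries left out in turn it ran between 0.15 and 0.27. The mean was 20.3 ± 1.43 CPM with corticosterone and 17.5 ± 1.32 CPM in controls, a log2 fold change of 0.21 (95% interval 0.0061 to 0.42) that did not pass (edgeR, Benjamini-Hochberg adjusted p = 0.281). The deposited FPKM averaged 6.85 ± 0.374 in treated and 5.89 ± 0.443 in control cells.

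C3 (chromosome 17, 57203970 to 57228136), the component on which all complement pathways converge, was the member with the highest FPKM in both groups. It had 93.3, 96.4 and 92.4 CPM in corticosterone replicates 1, 2 and 3, against 103, 101 and 105 CPM in control replicates 1, 2 and 3. The groups did not overlap. The log2 fold change was small, -0.13 (95% interval -0.24 to -0.013), and did not pass (edgeR, Benjamini-Hochberg adjusted p = 0.249). Without corticosterone replicate 2 it was -0.15 and passed (edgeR, Benjamini-Hochberg adjusted p = 0.0388), in a comparison in which 20.5% of all tested genes were called.

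Hp encodes haptoglobin, which binds free haemoglobin, and Saa3 an apolipoprotein of inflamed tissues. Hp had 17, 42 and 25 counts in corticosterone replicates 1, 2 and 3, against 4, 23 and 18 counts in control replicates 1, 2 and 3. Saa3 had 11, 40 and 15 counts in the treated libraries, against 10, 0 and 28 counts in controls. For both genes the groups overlapped, and corticosterone replicate 2 was the highest of the 6 libraries. The neutrophil markers S100a8, S100a9, Ngp and Ltf were also highest there. S100a8 had 3.05 FPKM there, against 1.22 and 1.77 FPKM in the other treated libraries and 1.3 to 1.6 FPKM in controls. Mmp8, another neutrophil marker, was lowest there, at 7.77 CPM, and Mpo, Elane and Csf3r were highest in other libraries. The part of neutrophil transcripts in the levels of Hp and Saa3 was not tested. Without that library the log2 fold changes were 0.50 for Hp and 0.048 for Saa3, beside 0.90 and 0.79 with it, and over all libraries left out in turn they ran between 0.46 and 1.34 for Hp and between 0.048 and 2.09 for Saa3. A count of 0 in control replicate 2 allows up to 4.59e-06% of that library (3 counts, counting error only). The 95% intervals of the log2 fold change were wide, -0.51 to 2.31 for Hp and -1.46 to 3.04 for Saa3, and both take in a rise as large as the fall of Slpi. Saa2, a close relative of Saa1, had 0 counts in all treated libraries and 0, 4 and 5 counts in control replicates 1, 2 and 3. Of the 50-base stretches of the Saa1 transcripts in GENCODE M21, 13.2% also occur in Saa2, so short reads from such stretches cannot be assigned to either gene.

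**Figure D2:**
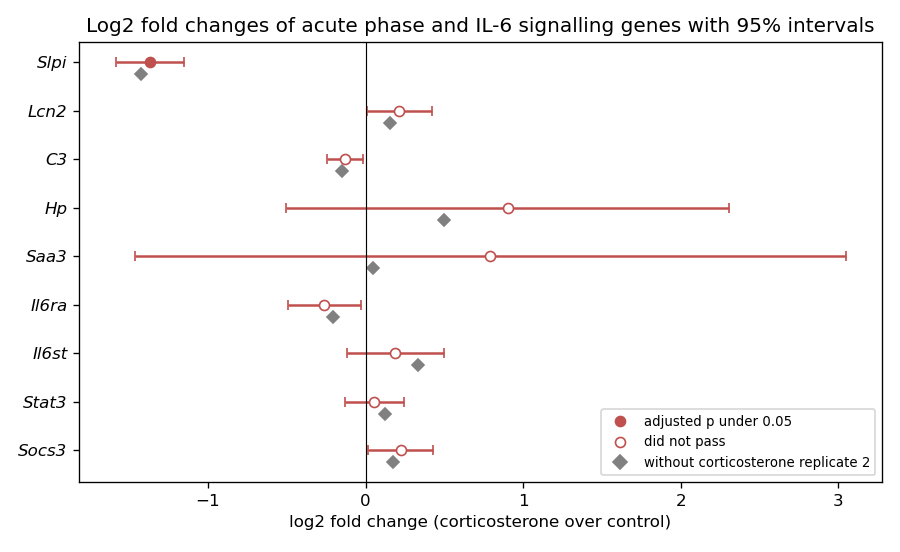
Log2 fold change of each gene (corticosterone over control, edgeR) with its 95% interval, filled where the adjusted p was under 0.05. Diamonds give the value without corticosterone replicate 2. Slpi (-1.37) is the filled point, and the widest intervals are those of Saa3 and Hp.

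Il6ra (chromosome 3, 89864059 to 89913196), the chain that binds IL-6 itself, had 20.1, 17.3 and 18.9 CPM in corticosterone replicates 1, 2 and 3, against 25.3, 21 and 21.3 CPM in control replicates 1, 2 and 3. All treated libraries were lower than all controls, with control replicate 1 the highest. The log2 fold change was -0.26 (95% interval -0.49 to -0.031) and did not pass (edgeR, Benjamini-Hochberg adjusted p = 0.241). Without control replicate 1 it was -0.17 (edgeR, Benjamini-Hochberg adjusted p = 0.505). Gm42809 lies across it in the other direction, and its count is uncertain, since the sources used here do not say whether reads were counted by strand.

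Il6st (chromosome 13, 112464070 to 112510086), which encodes gp130, had 127, 101 and 153 CPM in corticosterone replicates 1, 2 and 3, against 119, 109 and 106 CPM in control replicates 1, 2 and 3. Corticosterone replicate 2 lay below every control and the other treated libraries above every control. Over all libraries the log2 fold change was 0.19 (95% interval -0.12 to 0.49) and did not pass (edgeR, Benjamini-Hochberg adjusted p = 0.523). Without corticosterone replicate 2 it was 0.33 and passed (edgeR, Benjamini-Hochberg adjusted p = 0.0194), in the comparison with 20.5% of genes called. Without corticosterone replicate 3, the highest library, it was 0.037 (edgeR, Benjamini-Hochberg adjusted p = 0.949). In FPKM, Il6st averaged 10.2 ± 2.22 in treated and 8.88 ± 0.582 in control cells, and Il6ra 1.93 ± 0.169 and 2.30 ± 0.251.

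Stat3 (chromosome 11, 100885098 to 100939540) had 65.4, 56.8 and 67.2 CPM in corticosterone replicates 1, 2 and 3, against 65.0, 58.3 and 58.9 CPM in control replicates 1, 2 and 3. The groups overlapped, and the log2 fold change of 0.056 did not pass (95% interval -0.13 to 0.24; edgeR, Benjamini-Hochberg adjusted p = 0.771). The interval leaves out a rise or fall of the size seen for Slpi. Over the libraries left out in turn the value lay between 0.012 and 0.13. Stat3 overlaps the end of Stat5a on the opposite strand. Socs3 (chromosome 11, 117966079 to 117970047), the feedback inhibitor induced by STAT3, had 23.7, 25.6 and 22.6 CPM in corticosterone replicates 1, 2 and 3, against 21.4, 21.6 and 18.6 CPM in control replicates 1, 2 and 3. The groups did not overlap, and the log2 fold change of 0.22 (95% interval 0.017 to 0.43) did not pass (edgeR, Benjamini-Hochberg adjusted p = 0.263). Groups did not overlap for 5 of the 9 genes (Slpi, Lcn2, C3, Il6ra and Socs3), beside 22.2% of all tested genes.

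Per length of transcript, the order of levels with corticosterone was C3 (16.2 FPKM), Il6st (10.2), Socs3 (7.33), Lcn2 (6.85), Slpi (6.07), Stat3 (5.88), Il6ra (1.93), Hp (0.233) and Saa3 (0.11). In controls it was C3 (17.7 FPKM), Slpi (15.6), Il6st (8.88), Socs3 (6.27), Lcn2 (5.89), Stat3 (5.63), Il6ra (2.30), Hp (0.124) and Saa3 (0.0628). Between neighbours in the order, ranges over libraries overlapped for Socs3 and Lcn2, Slpi and Stat3, and Hp and Saa3 in treated cells. In controls they overlapped for Socs3 and Lcn2, Lcn2 and Stat3, and Hp and Saa3. Socs3 and Stat3, which are not neighbours, also overlapped in controls. Slpi thus stood in place 5 with corticosterone and in place 2 in controls.

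The wider pathway was described by 10 lists with 131 genes, members included, of which 111 had a row and 94 were tested. Of these, 3 rose, 7 fell and 84 did not pass, beside 1.35% of all tested genes called higher and 1.46% called lower. The same shares, 2.82% in either direction, stand beside the counts of each list below, as does 17.0% at an unadjusted p under 0.05. A short list with no call therefore says little about its genes. Leaving out the members, 3 of 85 rose and 6 fell. The rises include Lbp, which passed the count filter through its treated libraries alone. The median log2 fold change over the 94 genes was -0.033. Without corticosterone replicate 2, 24 of 95 passed, 8 that rose and 16 that fell, beside 20.5% of all 17862 genes tested then.

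**Figure D3:**
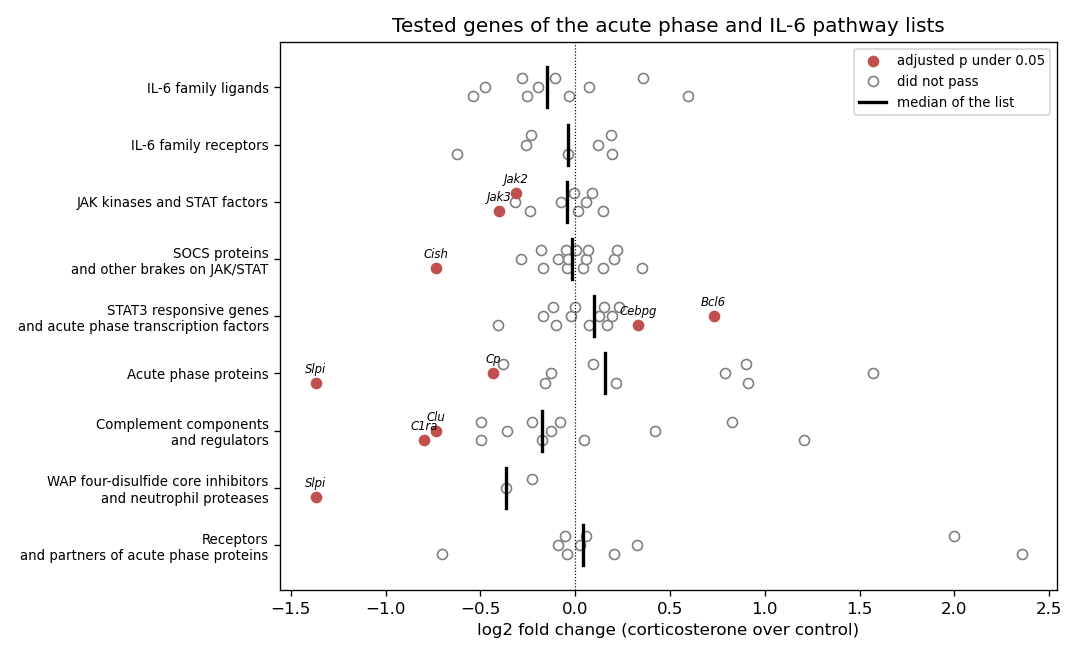
Log2 fold change (corticosterone over control, edgeR) of every tested gene in 9 lists of the acute phase and IL-6 pathway, filled where the adjusted p was under 0.05, with the median of each list as a bar. Lbp, which had 0 counts in controls, is left out of the points and kept in the median. The filled points are Slpi, C1ra, Clu, Cish, Cp, Jak3 and Jak2 on the lower side and Cebpg and Bcl6 on the higher side.

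Of 10 IL-6 family ligands, edgeR called 0, with 1 at an unadjusted p under 0.05, and 0 were called with DESeq2 and with limma (median log2 fold change -0.15). Lif, leukaemia inhibitory factor, and Clcf1, which signals through the ciliary neurotrophic factor receptor, were the abundant ones. Lif had 121, 98.6 and 125 CPM in corticosterone replicates 1, 2 and 3, against 147, 133 and 140 CPM in control replicates 1, 2 and 3. The groups did not overlap, and its log2 fold change, -0.28, did not pass (edgeR, Benjamini-Hochberg adjusted p = 0.169). Without corticosterone replicate 2 it was smaller, -0.18, and passed (edgeR, Benjamini-Hochberg adjusted p = 0.0342), in the comparison with 20.5% of genes called. Il6 itself was scarce, at 0.129 ± 0.0651 FPKM with corticosterone and 0.155 ± 0.106 FPKM in controls. Il11, at -0.54 on the log2 scale, did not pass (edgeR, Benjamini-Hochberg adjusted p = 0.367), nor did Ctf1, cardiotrophin 1, at -0.19 (edgeR, Benjamini-Hochberg adjusted p = 0.434). Of 7 receptors, edgeR called 0 (1 at an unadjusted p under 0.05), and 0 were called with DESeq2 and with limma. Apart from Il6st and Il6ra, the receptor chains averaged under 1 FPKM in both groups, among them Osmr, the oncostatin M chain, at 0.974 FPKM with corticosterone and 0.890 FPKM in controls. Il11ra1 and Il27ra, the receptor chains for IL-11 and IL-27, had log2 fold changes of -0.23 and -0.62 that did not pass (edgeR, Benjamini-Hochberg adjusted p = 0.593 for each).

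Among 10 tested JAK kinases and STAT factors, 2 fell and 8 did not pass. Jak2, a kinase of many cytokine receptors, had 78.7, 73.5 and 78.7 CPM in corticosterone replicates 1, 2 and 3, against 98.0, 97.4 and 91.4 CPM in control replicates 1, 2 and 3 (log2 fold change -0.31, SE 0.058; edgeR, Benjamini-Hochberg adjusted p = 0.0291). Jak3, the kinase that pairs with the common gamma chain, had 39.8, 41.6 and 39.9 CPM in treated libraries, against 53.8, 53.4 and 53.1 CPM in controls (log2 fold change -0.40, SE 0.057; edgeR, Benjamini-Hochberg adjusted p = 0.0103). For both kinases every treated library was below every control. Jak3 shares part of its span with Insl3 on the same strand. Among 16 SOCS proteins, PIAS proteins and phosphatases that restrain the pathway, 1 fell and 15 did not pass. The gene that fell was Cish, a SOCS family inhibitor induced by STAT5, with 2.67, 3.13 and 3.12 CPM in corticosterone replicates 1, 2 and 3, against 5.32, 4.83 and 4.69 CPM in control replicates 1, 2 and 3 (log2 fold change -0.73, SE 0.133; edgeR, Benjamini-Hochberg adjusted p = 0.0271). Treated libraries were lower than all controls.

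Of 14 STAT3 responsive genes and acute phase transcription factors, 2 rose and 12 did not pass. Bcl6, a transcriptional repressor, had 39.2, 35.2 and 41.6 CPM in corticosterone replicates 1, 2 and 3, against 23.9, 22.7 and 23.4 CPM in control replicates 1, 2 and 3. The groups were far apart, with a log2 fold change of 0.73 (SE 0.080; edgeR, Benjamini-Hochberg adjusted p = 0.00373). Cebpg, a C/EBP factor that forms dimers with other members of its family, had 77.0, 72.7 and 81.8 CPM in treated libraries, against 61.0, 59.9 and 63.1 CPM in controls (log2 fold change 0.33, SE 0.063; edgeR, Benjamini-Hochberg adjusted p = 0.0316). Cebpb and Cebpd, which drive acute phase genes in liver, had log2 fold changes of 0.17 and 0.19 that did not pass. Bcl6, Cebpg, Cebpb and Cebpd each lie across a gene of the opposite strand, and their counts are uncertain to that extent.

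The list of acute phase proteins held 28 genes, of which 17 had a row and 12 were tested. Slpi and Cp fell, Lbp rose and 9 did not pass (median log2 fold change 0.155). Cp, ceruloplasmin, a copper-carrying ferroxidase, had 82.9, 73.1 and 86.9 CPM in corticosterone replicates 1, 2 and 3, against 104, 116 and 108 CPM in control replicates 1, 2 and 3 (log2 fold change -0.43, SE 0.076; edgeR, Benjamini-Hochberg adjusted p = 0.0243). The groups did not overlap, and Cp overlaps Hps3 on the opposite strand. Lbp, which carries bacterial lipopolysaccharide to CD14, had 14, 26 and 21 counts in corticosterone replicates 1, 2 and 3, against 0 counts in all control libraries. It was at least 20.5-fold higher with corticosterone (floor of 3 counts over the control group). Lbp passed the count filter through its treated libraries alone, which limits what its call shows (edgeR, Benjamini-Hochberg adjusted p = 0.023). It was not called by DESeq2 or by edgeR with no low count filter, and stayed under 0.1 FPKM. Orm3, an alpha-1-acid glycoprotein, was below the count filter, with 8, 7 and 8 counts in treated libraries against 0, 0 and 2 counts in controls. The ratio of its summed counts was 11.6 (exact 95% interval 2.87 to 102, counting error only). The genes of the list without a row include Orm1, Orm2, Crp, Fga, Fgb and Fgg, which hepatocytes make. Of the negative acute phase proteins, Trf (transferrin) was the 1 tested, and it did not pass (log2 fold change -0.13; edgeR, Benjamini-Hochberg adjusted p = 0.442).

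Among 13 tested complement genes, 2 fell and 11 did not pass, with a median log2 fold change of -0.18. Clu, clusterin, a secreted chaperone that also blocks the terminal complement complex, had 146, 188 and 152 CPM in corticosterone replicates 1, 2 and 3, against 250, 267 and 292 CPM in control replicates 1, 2 and 3. The highest treated library, replicate 2, was still below the lowest control, and the log2 fold change was -0.74 (SE 0.102; edgeR, Benjamini-Hochberg adjusted p = 0.00942). C1ra, a protease of the first complement component, had 5.23, 5.87 and 5.35 CPM in treated libraries, against 8.97, 8.47 and 11.1 CPM in controls (log2 fold change -0.80, SE 0.132; edgeR, Benjamini-Hochberg adjusted p = 0.0193). Its partner protease C1s1 stood at -0.50 and did not pass (edgeR, Benjamini-Hochberg adjusted p = 0.176). Among 3 tested genes of the WAP domain inhibitors and the neutrophil proteases they act on, Slpi fell and 2 did not pass. Wfdc2, the most abundant relative of Slpi among them, averaged 227 ± 31.7 FPKM with corticosterone and 291 ± 16.7 FPKM in controls (log2 fold change -0.37; edgeR, Benjamini-Hochberg adjusted p = 0.126). DESeq2 called its fall with all 6 libraries. In edgeR it passed without corticosterone replicate 2, at a log2 fold change of -0.50 (edgeR, Benjamini-Hochberg adjusted p = 0.000689), in the comparison with 20.5% of genes called. Elane and Ctsg, neutrophil proteases that Slpi inhibits, averaged 0.0184 and 0.116 FPKM with corticosterone and 0.0165 and 0.0687 FPKM in controls.

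**Figure D4:**
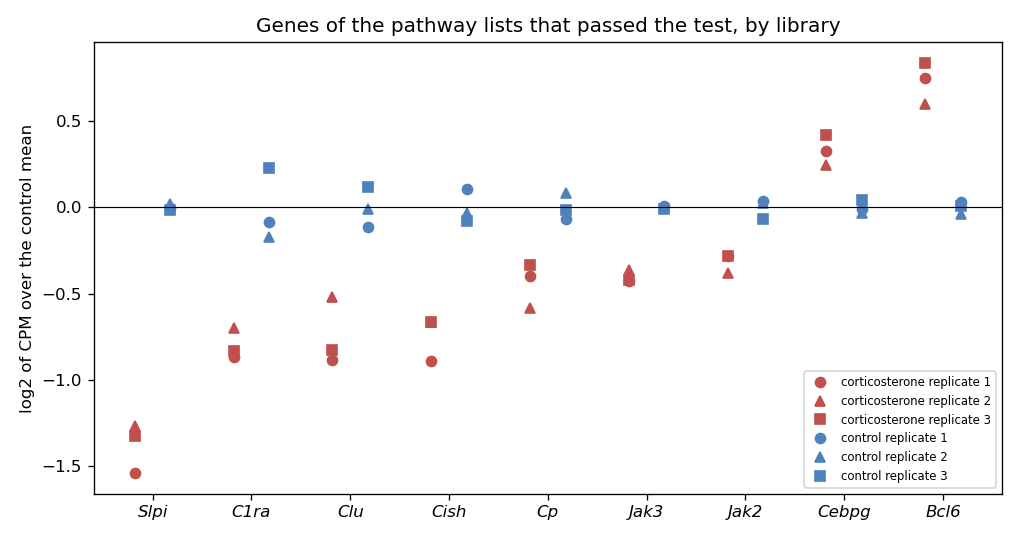
CPM of each called pathway gene in every library relative to the control mean, on the log2 scale, with corticosterone libraries left of controls and shapes for replicate numbers. Lbp is left out because its control counts are 0. For all 9 genes shown the groups do not overlap, beside 22.2% of all tested genes. The genes were picked because they passed the test, which favours such a separation. The widest gap is that of Slpi.

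Slpi and Bcl6 were the 2 of the 10 calls among pathway genes that held without each library in turn. The call of Clu was lost without corticosterone replicate 1 and without control replicates 2 or 3 (highest edgeR, Benjamini-Hochberg adjusted p = 0.07). The calls of Jak3 and Cp were lost without corticosterone replicate 1 and without each control (highest adjusted p = 0.0856 and 0.151, edgeR with Benjamini-Hochberg adjustment). Those of Jak2, Cish, Cebpg, Lbp and C1ra held only without corticosterone replicate 2 (highest adjusted p between 0.105 and 0.193, edgeR with Benjamini-Hochberg adjustment).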

How the data were processed

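The deposited table gives counts and FPKM for 28154 genes in 6 libraries of 4T1 cells. The counts are, per the file headers, raw counts per gene and library, which the authors did not normalize. FPKM, also from the authors, are scaled to transcript length and library depth per the file headers. The sources used here give no aligner, counter, strandedness or read layout. GRCh38 is the build the labels name, but all 28154 identifiers are mouse. Of these, 28086 were found in GENCODE M21 (GRCm38), 87% of them with identical coordinates. Groups came from the treatment label. Counts were filtered with edgeR 4.0.16 (filterByExpr, minimum count 10, minimum total 15), normalized by TMM (trimmed mean of M values) and tested with the quasi-likelihood test in R 4.3.3, on group alone, with Benjamini-Hochberg adjustment over 17283 genes and a threshold of 0.05. The SE is the log2 fold change divided by the square root of F. The biological coefficient of variation was 0.135. Chi-square per gene compares the counts of 2 libraries with sampling noise, which would give about 1.

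Alternatives were DESeq2 1.42.0, its size factors in edgeR, no low count filter, limma 3.58.1 with an intensity trend on log2(FPKM + 1) or log2(FPKM + 0.1) with at least 1 FPKM in at least 3 libraries, limma with no filter, the replicate block, each library left out, and thresholds of 0.01 and 0.1. On simulated counts of 17283 genes, 86% of 2-fold and 42% of 1.5-fold changes were called, with 5 false calls among unchanged genes. These values describe the simulated counts alone. How far they hold for the deposited libraries, in which corticosterone replicate 2 differed from the remaining treated libraries, was not tested. The members and the gene lists were chosen with earlier results of these data known. Genes named are the members, the pathway genes that passed or, failing that, up to 3 per list with the lowest p, and 5 receptor targets; other genes were named after their values were seen. Promoter windows are from RefSeq (GRCm38.p6). Intervals and floors on counts cover counting error only.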

Additional observations from a re-analysis of the deposited data

How the results depend on the processing

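The number of set members that changed was 1 in each alternative but one, being 3 without corticosterone replicate 2 (Slpi, C3 and Il6st); over the libraries left out in turn it ran from 1 to 3. The log2 fold change of Slpi lay between -1.43 and -1.24 over 13 alternatives and passed in all of them, with adjusted p up to 0.0122 (edgeR). Of the values of single members under alternatives, 111 kept their direction and their side of the threshold and 0 reversed. The other 2 (C3 and Il6st without corticosterone replicate 2) gained a call. DESeq2 gave no adjusted p for Saa3 and Hp, and these were counted as not passing. Saa3 and Hp did not reach 1 FPKM and have no limma value with a filter. The count over all genes, 487, was 1131 with DESeq2, 211 with no low count filter, 260 with limma and no filter on low values, 144 at a threshold of 0.01, 889 at 0.1, and 88 to 3670 over the libraries left out. The count of pathway genes, 10, was 4 with no low count filter, 5 with limma and no filter, 3 at a threshold of 0.01, and 2 to 24 over the libraries left out. With fewer libraries the test also has less power, and the cause of the other shifts was not tested.

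Replicate numbers are not known to pair the libraries. Deviations from the group means had Pearson r of 0.0106, 0.0379 and -0.0884 across genes between same-numbered libraries, and 1 of 6 libraries correlated best with its own number. With the replicate block, 237 of all genes, 3 pathway genes (Bcl6, Clu and Slpi) and 1 member passed. Hp and Saa3 had 0 to 42 counts in each library and wide intervals; how far depth sets their width was not tested.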

Other observations

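Over the 6 libraries, the genes whose log2 CPM followed that of Slpi most closely, among 7438 tested genes with a mean of at least 5 FPKM, were Tslp (Pearson r = 0.998), Baiap2, Jak3, Lasp1 and Gm10282 (each r = 0.996). These values are a description of 6 libraries that fall into the treatment groups, so any gene that fell evenly scores high. Tslp, an epithelial cytokine, averaged 13.8 FPKM with corticosterone and 32.5 FPKM in controls (log2 fold change -1.24), while Baiap2 and Lasp1, which bind the actin cytoskeleton, had log2 fold changes of -0.30 and -0.19, the last of which did not pass (edgeR, Benjamini-Hochberg adjusted p = 0.0761).

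Of 10 tested receptors and partners of acute phase proteins, edgeR, DESeq2 and limma each called 0, beside 2.82% of all tested genes in edgeR. At an unadjusted p under 0.05, edgeR had 4, beside 17.0% of all tested genes. Lrp2 and Slc22a17, described as receptors of lipocalin 2, averaged 0.0279 and 0.0547 FPKM with corticosterone and 0.00515 and 0.0128 FPKM in controls. Scarb1, a receptor that also takes up serum amyloid A, averaged 8.81 ± 0.387 FPKM with corticosterone and 7.60 ± 0.320 FPKM in controls (log2 fold change 0.21; edgeR, Benjamini-Hochberg adjusted p = 0.157). Bdh2, linked to the mammalian siderophore that lipocalin 2 binds, had a log2 fold change of -0.70 (edgeR, Benjamini-Hochberg adjusted p = 0.152).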
